A study of Mus musculus with 2 samples.

Results

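Mature oligodendrocytes, the cells that wrap axons of the central nervous system in myelin, made up 1099 of the 6906 cells kept from the lateral hypothalamic area of the mouse. The area was dissected from C57BL/6 animals at postnatal day 30, dissociated, and profiled as single cells in 2 libraries (Chromium v2 chemistry). One library is labelled male and pooled 3 animals, the other is labelled female and pooled 2, and all 5 were littermates with no treatment named in the labels. A cell counted as a mature oligodendrocyte when Mog, Mag, Opalin and Ermn together had 5 or more UMIs (counted mRNA molecules), when Bmp4, Enpp6, Neu4 and Gpr17 together had at most 1, and when Snap25 and Syt1 together had at most 3. The cell also needed 500 or more detected genes and at most 20% of its UMIs from mitochondrial genes. These measured values chose the cells, so the levels of the 10 genes are a description and no test was made on them.

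Oligodendrocytes arise from precursors that carry Pdgfra and the proteoglycan encoded by Cspg4. A precursor that leaves the cell cycle first becomes a newly formed oligodendrocyte, marked by Enpp6, Bmp4 and Neu4, and then switches on the proteins of compact myelin under the control of the transcription factors SOX10 and MYRF. In the hypothalamus, as elsewhere in the brain, the mature cell also stores iron, handles potassium around axons and passes metabolites to them.

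The sex-linked genes go against the labels. In the mature oligodendrocytes, Xist, transcribed from the inactive X chromosome, had 2482 UMIs in the library labelled male and 0 in the library labelled female. The Y-linked Ddx3y had 0 UMIs in the former and 417 in the latter. The libraries are therefore called male-labelled and female-labelled throughout, and no difference between them is read as a difference between sexes.

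The regulatory sequence just before the start of 3 marker genes is shown because MYRF and SOX10 are the factors known to switch on this gene program. The windows are the 250 bases before the RefSeq start (GRCm38.p6), read 5′ to 3′ on the strand of the gene, and capitals mark a motif. The MYRF motif was searched as CTGGCAC or CTGGTAC and the SOX motif as ACAAAG or ACAATG, on both strands. The motifs can share bases where they adjoin, but in the windows shown they lie apart. Mog encodes a glycoprotein of the outermost myelin surface, Opalin a membrane protein of myelin, and Hapln2 a link protein of the matrix at the nodes of Ranvier. Mog (chr17:37023399-37023648, minus strand) holds a MYRF motif on the opposite strand. Opalin (chr19:41077114-41077363, minus strand) holds a SOX motif, and Hapln2 (chr3:88027512-88027761, minus strand) holds both.
Mog: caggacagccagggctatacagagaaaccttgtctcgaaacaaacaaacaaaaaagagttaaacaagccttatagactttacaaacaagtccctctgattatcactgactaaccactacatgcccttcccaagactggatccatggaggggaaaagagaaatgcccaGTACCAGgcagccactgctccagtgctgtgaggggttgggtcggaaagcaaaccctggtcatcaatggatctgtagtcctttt
Opalin: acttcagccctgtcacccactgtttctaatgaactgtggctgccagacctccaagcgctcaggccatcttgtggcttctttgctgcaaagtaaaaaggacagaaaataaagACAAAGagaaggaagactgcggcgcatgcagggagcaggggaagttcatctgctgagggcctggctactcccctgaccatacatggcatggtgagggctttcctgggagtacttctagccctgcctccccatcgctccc
Hapln2: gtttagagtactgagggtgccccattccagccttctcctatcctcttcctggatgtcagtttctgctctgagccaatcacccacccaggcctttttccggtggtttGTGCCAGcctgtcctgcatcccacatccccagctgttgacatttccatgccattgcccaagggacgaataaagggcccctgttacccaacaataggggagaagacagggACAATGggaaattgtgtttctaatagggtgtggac

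Over the 4 marker genes and the 25 genes that stood highest against the other cells, 23 of 29 had such a window. A SOX motif was found for 9 of the 23 (39.1%), against 28.2% of 27025 genes. A MYRF motif was found for 5 of the 23 (21.7%), which were Mog, Mag, Hapln2, D7Ertd443e and Gm13293, against 6.79% of all genes. A match of these letters is a description of the window and not a binding site.

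The mature marker sum separated the cells that met the other conditions, but those conditions cut through cells with mature markers. In the male- and female-labelled library, 682 and 699 kept cells had 5 or more mature marker UMIs. Of these, 98 and 128 were left out for stage markers and 29 and 27 for neuronal markers, and they count among the other kept cells. Members with 1 stage marker UMI numbered 104 and 108, and cells left out with 2 numbered 45 and 49. Among cells that met the other conditions, 527 and 588 cells of the male- and female-labelled library had 0 mature marker UMIs, and the highest sum outside the group was 2 in each. No cell had 3 or 4, and 3 and 10 cells had 5 to 9, just inside the limit. The median sum in the group was 23 in both libraries, and the lowest were 6 and 5. The group held 555 of 3276 kept cells in the male-labelled library, or 16.9% (exact binomial 95% interval 15.7 to 18.3%). It held 544 of 3630 in the female-labelled library, or 15.0% (13.8 to 16.2%). The female-labelled share fell to 7.70% with cells limited to 10% mitochondrial UMIs and to 8.57% with no Snap25 or Syt1 UMI allowed, and the male-labelled share to 11.4% and 10.7%. Intervals of this kind cover counting error only.

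**Figure D1:**
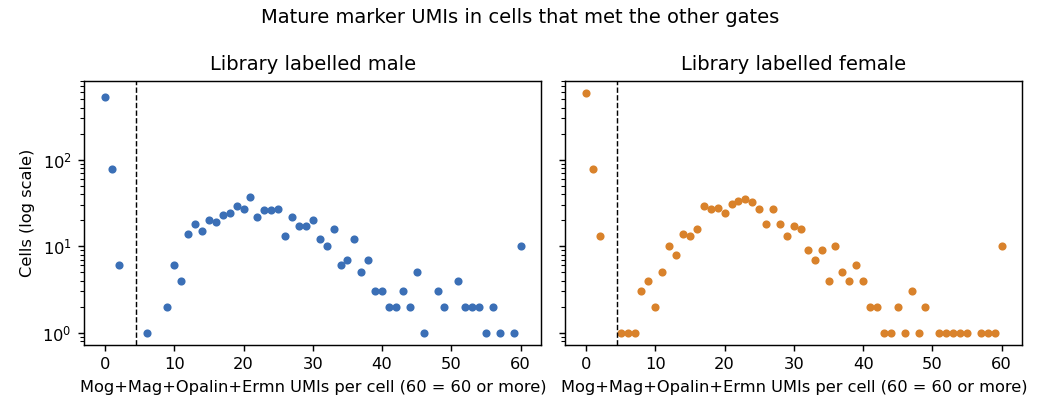
The x axis gives the summed UMIs of Mog, Mag, Opalin and Ermn per cell, with 60 standing for 60 or more, and the y axis gives the number of cells on a log scale. Only cells that met the other conditions are shown, 1 panel per library, and the dashed line marks the limit: no cell lies at 3 or 4 UMIs, and the median of the cells above the limit was 23 in each library.

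Markers of other cell types were present in these cells, far below the other kept cells for neurons but not for astrocytes. A median of 4092 and 4586 UMIs and of 1639 and 1798 genes was counted per mature oligodendrocyte, below the 6790 and 7228 UMIs of the other kept cells. The 10 neuronal markers together stood at 637 and 860 CPM (the UMIs of a gene relative to all UMIs of the group, scaled to one fixed total), against 22202 and 23759 in the other kept cells. The 10 microglial markers stood at 144 and 47.3 CPM and the 8 endothelial markers at 18.1 and 55.4. The 10 astrocyte markers stood at 552 and 653 CPM, close to the 507 and 691 CPM of the other kept cells, and 24.7% and 37.3% of the mature cells had 3 or more of their UMIs. Ependymal and tanycyte markers were higher than in the other kept cells, at 65.9 and 53.9 against 14.6 and 14.9 CPM, with 3 and 2 of the 6 genes detected. In the male-labelled library 28.1% of the cells had 3 or more UMIs of markers of a glial, vascular or blood class, and in the female-labelled library 39.3% did. Of the 18 barcodes present in both libraries, 3 belonged to a mature oligodendrocyte in 1 of them and none in both.

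Against all other kept cells, the mature oligodendrocytes were set apart by myelin proteins, carbonic anhydrases and iron-handling genes. Because the cells were sorted on genes of the same program, this is a description with no test. Mal, a proteolipid that sorts membrane to myelin, stood at 5479.5 CPM in the male-labelled and 5317 CPM in the female-labelled library, against 153 and 145 CPM in the other cells. That is 35.8- and 36.7-fold, the first of the 25 genes ranked by the lower ratio of the 2 libraries. Of 2571 genes at 50 or more CPM in the mature cells of both libraries, 627 (24.4%) were 2-fold or more higher in both.

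Car2, the cytosolic carbonic anhydrase of oligodendrocytes, had 1697 and 1654 CPM against 49.1 and 53.0 CPM elsewhere. It was detected in 98.6% and 98.7% of the mature cells. Trf, the iron carrier transferrin, had 1866 and 1720 CPM against 70.0 and 54.4 CPM. Both libraries gave nearly the same level for each of these genes. Aspa, which frees acetate from N-acetylaspartate for lipid synthesis, had 332 and 315 CPM against 9.39 and 9.44 CPM. Gjb1, the connexin of oligodendrocyte gap junctions, had 378 and 328 CPM against 12.01 and 11.62 CPM. Hapln2 had 369 and 377 CPM against 12.2 and 14.7 CPM, but it was detected in only 54.2% and 63.6% of the mature cells. Abundant genes of this ranking were Cryab (3651 and 3731 CPM), a small heat shock protein, and Gatm (2082 and 2234 CPM), the first enzyme of creatine synthesis. Fa2h, which hydroxylates the fatty acids of myelin lipids, had 877 and 916 CPM. Less abundant genes of the ranking were Tnfaip6 (81.5 and 88.1 CPM), Ninj2 (98.2 and 65.4 CPM), Insc, Itgb4, Pls1 and Galnt6.

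By function, 12 compact myelin genes stood at 50 or more CPM in the mature cells of both libraries. All 12 were 2-fold or more higher than in the other cells, with a median ratio of 14.4. So were 5 of 5 iron and carbonic anhydrase genes, 10 of 11 transcription factors and 9 of 10 receptors. Of the myelin lipid genes 13 of 21 were, with a median ratio of 5.60. None of the 3 genes of axonal metabolic support at this level was 2-fold higher, and Aldoc, a glycolytic aldolase abundant in astrocytes, stood at 0.355 and 0.425 times their level. None of 11 mitochondrial transcripts reached 2-fold. The cut of 50 CPM was made on the mature cells alone, so it favours genes that are high in them. The compact myelin, iron and carbonic anhydrase, transcription factor and receptor lists held 13, 11, 17 and 18 genes before it. Over all genes past the cut, 24.4% were 2-fold or more higher, with a median ratio of 0.97.

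The nearest group in the lineage, newly formed oligodendrocytes, numbered 101 and 127 cells. They were chosen by 3 or more UMIs of Bmp4, Enpp6, Neu4 and Gpr17, at most 1 of Pdgfra and Cspg4 and at most 3 of Snap25 and Syt1. Counts were summed by library and group and compared with edgeR's quasi-likelihood test, with the library as a block. The 12 sorting genes were taken out before adjustment. Each library is a pool of littermates, and the block takes up the overall difference between these 2 pools. What is left, 1 residual degree of freedom, is how far the group difference varies between them. In this comparison the fit replaced each gene's own spread by a value shared across genes. The p-values therefore do not measure spread between animals, and the groups were sorted on genes that mark the stage. Levels are CPM over the genes tested, scaled to library totals and given for the male-labelled and then the female-labelled library. A log2 fold change carries a standard error derived from the test, its size divided by the square root of the F statistic. The change itself comes from the fit, which also scales by TMM factors, a correction that centres most genes on no change. That scaling raised the log2 fold changes of mature against newly formed cells by a median of 0.34 over the ratio of the printed levels.

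Mature cells differed from newly formed ones in 3007 of 9685 genes tested (31.0%) at an adjusted p under 0.05. Of these, 1511 (15.6%) were higher and 1496 (15.4%) lower in the mature cells. Scaled to library totals alone, 3581 genes were called, 752 higher and 2829 lower, against 1511 and 1496 with TMM scaling. The counts of the gene lists below are to be read against these numbers. With library totals most calls over all genes were lower, so added lower calls in a list follow that shift. Of the 3007 genes, 2248 were called in the same direction under both scalings and none in opposite directions. DESeq2 called 1046 genes, and thinning every cell to 2000 UMIs left 1996. Newly formed cells had a median of 4894 and 5314 UMIs, more than the mature cells, and their neuronal markers stood at 2141 and 1463 CPM. The part of these differences in the results was not tested, although the thinned fit above holds the depth of each cell fixed.

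Compact myelin genes were mostly higher in the mature cells, with 11 of 12 tested called higher, none lower, and a median log2 fold change of 0.81 against -0.01 over all genes. With library totals 8 were higher and 1, Mbp, was lower. Mal had the largest change of the list, from 1438 and 1032 CPM to 5527 and 5364 CPM (log2 fold change 2.50 ± 0.09, adjusted p = 6.34e-154, and 2.16 ± 0.10 with library totals). Gpm6b, a membrane proteolipid, rose by 1.62 ± 0.11 on the log2 scale (adjusted p = 2.36e-48). The exception was Mbp, the basic protein that compacts the myelin membrane, at 12597 and 14625 CPM in newly formed and 9597 and 10075 CPM in mature cells. Its log2 fold change of -0.13 ± 0.08 did not pass the test (adjusted p = 0.213), while with library totals it was -0.47 ± 0.08 (adjusted p = 1.52e-07).

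The iron and carbonic anhydrase genes had 5 called higher and 1 lower of 8 tested, and 4 and 1 with library totals. Car2 went from 319 and 253 CPM to 1712 and 1669 CPM, a log2 fold change of 2.91 ± 0.11 (adjusted p = 4.83e-138), or 2.58 ± 0.12 with library totals. Trf rose by 2.16 ± 0.10 and the ferritin heavy chain Fth1 by 1.88 ± 0.07 on the log2 scale. Each of these rose in both libraries. Steap2, a metalloreductase, fell from 57.7 and 60.5 CPM to 2.54 and 4.66 CPM.

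Among transcription factors, 4 were called higher and 7 lower of 16, and 1 and 9 with library totals. Tcf7l2, a Wnt pathway factor of the newly formed stage, fell by 3.99 ± 0.14 on the log2 scale (648.6 and 745 CPM against 32.2 and 36.9 CPM). Zfp488 and Nkx2-2, both factors of differentiation, fell by 1.97 ± 0.23 and 1.43 ± 0.17. The lineage factors Olig2, Sox10 and Sox8 fell less, by 0.47 ± 0.13, 0.45 ± 0.11 and 0.59 ± 0.11, and with library totals by 0.81 ± 0.13, 0.78 ± 0.11 and 0.92 ± 0.11. Nkx6-2, a homeodomain factor of mature oligodendrocytes, rose by 1.36 ± 0.12, from 252 and 262 CPM to 539 and 509 CPM. Myrf and Olig1 did not pass the test, with log2 fold changes of -0.09 ± 0.12 and 0.08 ± 0.10, but with library totals both were called lower, at -0.42 ± 0.12 and -0.26 ± 0.10.

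At the cell surface the picture was mixed. Of 14 paranode and adhesion genes, 5 were called higher and 4 lower, and 5 and 6 with library totals. Cntn2, a contactin of the juxtaparanode, went from 110 and 114 CPM to 512 and 519.8 CPM, and Gjb1 and Hapln2 rose by 2.34 ± 0.15 and 2.14 ± 0.15 on the log2 scale. Nfasc, whose glial form anchors the paranodal loops, fell from 3097 and 3757 CPM to 472 and 461 CPM, a log2 fold change of -2.53 ± 0.10. Opcml, an adhesion molecule of neurons and precursors, fell by 4.85 ± 0.16. Of 18 receptors, 10 were called higher and 4 lower, and 7 and 5 with library totals. The metabotropic glutamate receptor gene Grm3 rose by 3.70 ± 0.40, from 5.77 and 4.04 CPM to 39.4 and 57.8 CPM, and the adenosine receptor gene Adora1 by 2.35 ± 0.21. The AMPA receptor subunit Gria2 fell by 3.26 ± 0.15 and the death receptor Tnfrsf21 by 4.17 ± 0.21. Of 13 channels and transporters, 7 were called higher, among them Hcn2, a hyperpolarization-activated cation channel, at 2.80 ± 0.15, and 1 was lower, the potassium channel Kcna2 at -1.33 ± 0.16. With library totals 6 were higher and 3 lower.

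In metabolism, 9 of 21 lipid genes were called higher and 2 lower, and 8 and 5 with library totals. Ptgds, a prostaglandin D synthase, rose by 2.46 ± 0.10, and Aspa by 2.41 ± 0.16. Of 11 genes of axonal metabolic support, 4 were higher, namely the lactate transporter Slc16a1, the glucose transporter Slc2a1, Pfkfb3 and Aldoc, and Pdk2 was lower. With library totals 3 were higher, without Aldoc, and 3 lower. All 11 mitochondrial transcripts were higher, by 0.46 to 0.98 on the log2 scale, but 7 of them with library totals. Of 20 genes listed for the late mature stage, 16 were higher and 2, Pcdh7 and Cnksr3, were lower, and 15 and 3 with library totals. The list rests on knowledge of the lineage and its genes overlap the iron list. Like the other lists, it was chosen with earlier results of these data known, so its counts are a description. Il33, an alarmin cytokine, rose by 3.14 ± 0.36, and Jph4, a junctophilin, by 3.22 ± 0.21.

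Ranked by size over all genes, the largest rises at 50 or more CPM after the hemoglobin genes were Adamtsl1 (3.87 ± 0.38), Dock5 (3.80 ± 0.39) and Pde8a (3.41 ± 0.24), a cyclic AMP phosphodiesterase. Hba-a2 and Hba-a1 headed that ranking, but 1 cell of the female-labelled library held 1992 of the 2227 hemoglobin UMIs of its mature oligodendrocytes, and the next held 85. Without these 2 cells the 4 hemoglobin genes stood at 57.7 CPM together. Tnr, the matrix protein tenascin-R, fell from 1188 and 1261 CPM to 3.81 and 4.27 CPM (log2 fold change -7.88 ± 0.19). The chondroitin sulfate proteoglycan Vcan fell from 137 and 144 CPM, and had 1 and 6 UMIs left in the mature cells. Mycl, a MYC family factor, had 239 and 184 CPM in newly formed cells and 2 UMIs in the mature cells of each library. Slc1a1, a neuronal-type glutamate transporter, fell by 5.69 ± 0.21, and Ppfibp1, a liprin scaffold, by 6.16 ± 0.26.

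The newly formed cells fell into a less and a more advanced part. Of the 101 and 127 cells, 46 and 66 already had 5 or more mature marker UMIs, with a median of 35 and 28.5, above the 23 of the mature cells. These cells were also the deepest, at 6813 and 7653 UMIs. The 89 and 100 precursors, chosen by 3 or more UMIs of Pdgfra and Cspg4, at most 1 mature marker UMI and at most 3 of Snap25 and Syt1, complete the series. Levels along it are plain CPM, described without a test, with the male-labelled library given first.

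Car2 and Trf rose late. Car2 had 33.1 and 46.4 CPM in precursors, 14.9 and 40.4 in newly formed cells under 5 mature marker UMIs, 501 and 353 in those at 5 or more, and 1697 and 1654 in mature cells. Mal followed the same order, with 9.94 and 12.1 CPM in the less advanced newly formed cells, 2291 and 1514 in the more advanced and 5479.5 and 5317 in the mature.
Other genes peaked in between. Mbp reached 14361 and 15923 CPM in the more advanced newly formed cells and stood at 9514 and 9986 CPM in the mature cells. Lpar1, a lysophosphatidic acid receptor, had 538 and 616 CPM there and 467 and 492 CPM in mature cells, and Mcam, an adhesion molecule, had 218 and 254 CPM against 154 and 160 CPM. Tmem2, a cell surface hyaluronidase, had 295 and 509 CPM in the more advanced newly formed cells and 1.26 and 3.85 CPM in mature cells. It was detected in only 28.3% and 42.4% of the more advanced newly formed cells. Tnr peaked earlier, at 2122 and 2384 CPM in the less advanced cells. Apod, a lipocalin, had its summed level high at both ends, with 1335 and 725 CPM in precursors, 49.7 and 24.2 CPM in the less advanced newly formed cells and 853 and 669 CPM in mature cells. It was detected in 11.2% and 9% of the precursors, however, against 89.7% and 87.3% of the mature cells, so few cells carried the level in precursors. The order of precursors and less advanced cells differed between the libraries for Trf, Lpar1 and Tmem2, and that of less advanced and mature cells for Mbp.

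**Figure D2:**
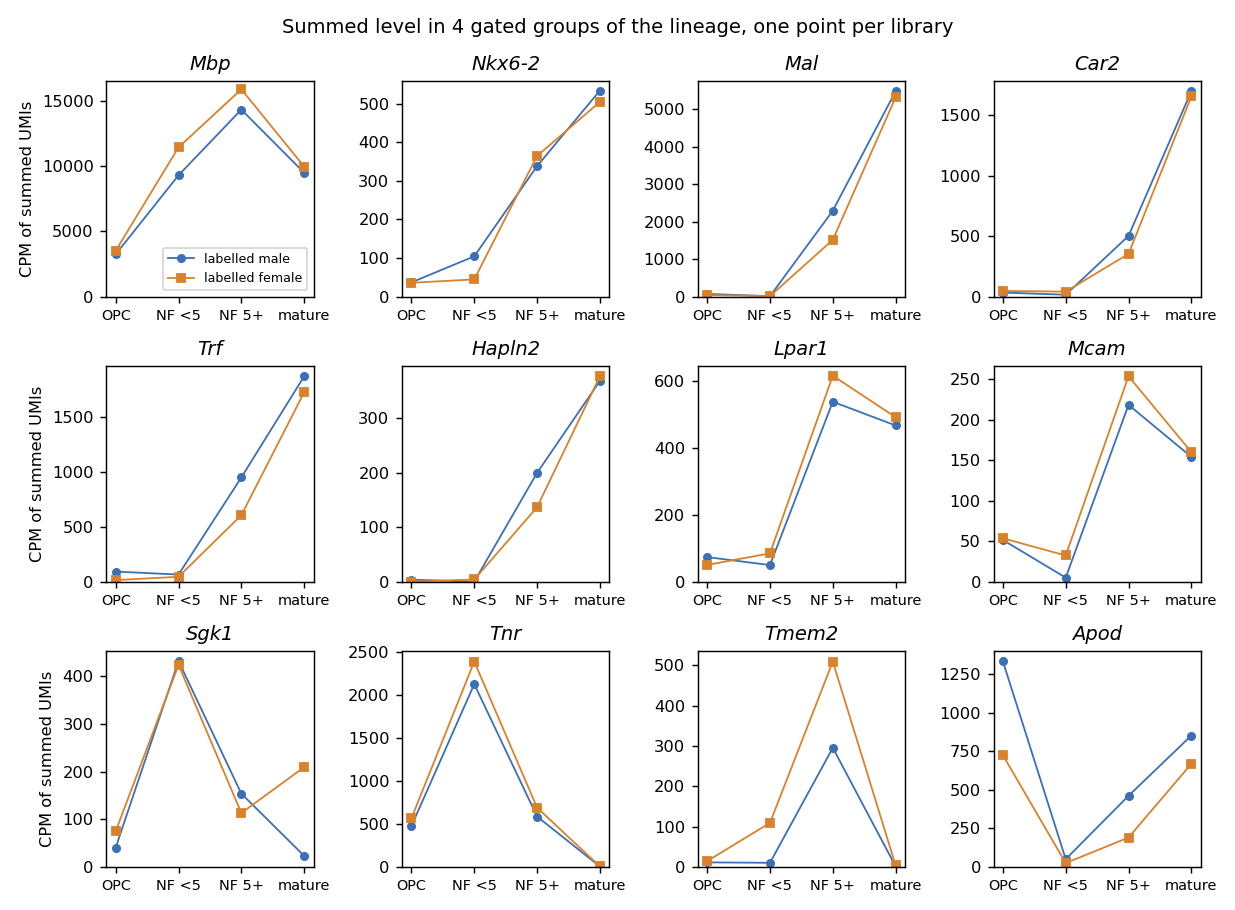
Each panel plots CPM of summed UMIs (y axis, from 0) for 1 gene in precursors (OPC), newly formed cells under 5 mature marker UMIs (NF <5), newly formed cells at 5 or more (NF 5+) and mature cells, with 1 point per library. Car2 ends at 1697 and 1654 CPM in the mature cells, Mbp and Mcam are highest in the NF 5+ cells, and the libraries separate in the mature cells for Sgk1.

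Within the mature oligodendrocytes, spread was examined after each cell was thinned at random to 2000 UMIs. The variance divided by the mean is 1 for counting noise alone, and its median over 1239 genes was 1.04 in each library. Ptgds, the prostaglandin synthase, had ratios of 5.36 and 5.22. Its 10th percentile, median and 90th percentile were 0, 7 and 16 UMIs in the male-labelled library and 0, 6 and 15 in the female-labelled one, and 14.8% and 14.0% of cells had none. Fth1 had ratios of 6.91 and 7.58, the selenium carrier Sepp1 2.84 and 2.71, and Mal 2.50 and 2.55. Meg3, a neuronal noncoding RNA, had ratios of 16.9 and 14.6, and 3 and 7 cells at 10 or more UMIs before thinning held 224 of 468 and 512 of 851 of its UMIs.

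Car2 varied less than these, with ratios of 1.64 and 1.39, and Trf had 1.80 and 1.54. Their median was 3 UMIs each in both libraries. Lpar1 had ratios of 1.23 and 1.31 and was found in 58.2% and 57.4% of thinned cells, Mcam had 1.10 and 1.10 and was found in 25.8% and 25.7%. Il33 was found in 8.29% and 7.90% and the protease gene Klk6 in 3.60% and 2.76%. The share of cells with a Car2 UMI was far lower in cells with 10 or more UMIs of neuronal markers, at 2.93% and 3.87% of cells thinned to the same depth. The same cells had a Lpar1 UMI in 1.39% and 1.83%.

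**Figure D3:**
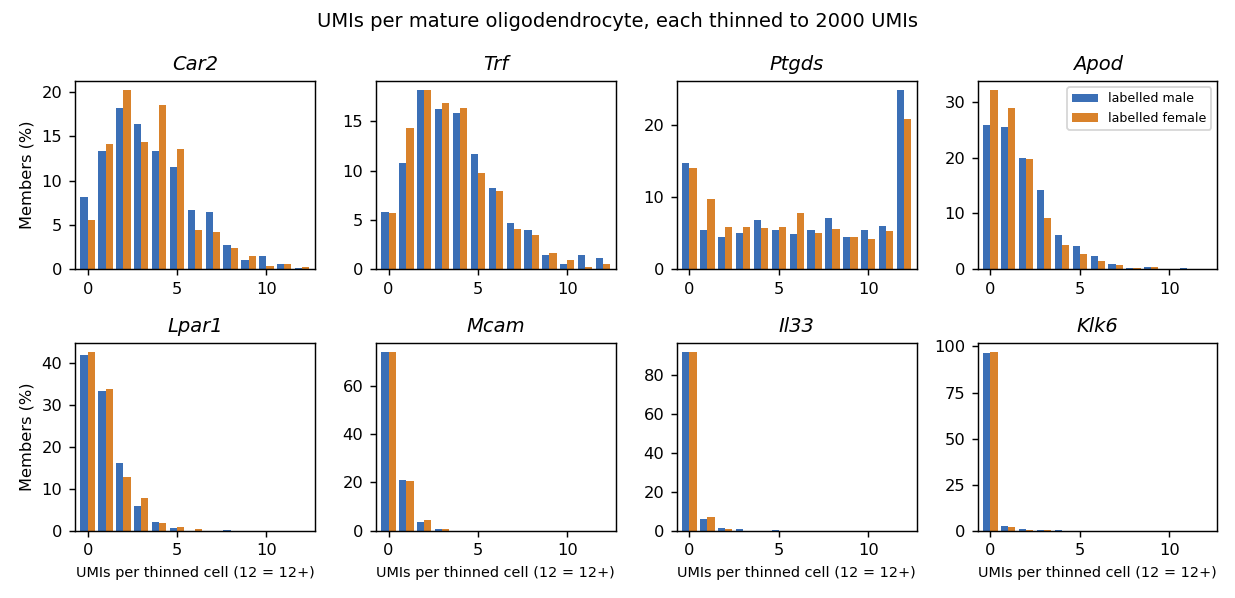
Bars give the percent of mature oligodendrocytes (y axis) with each number of UMIs (x axis, 12 standing for 12 or more) after thinning to 2000 UMIs, by library. Car2 and Trf spread around their median of 3, Ptgds is broad with 14.8% and 14.0% of cells at 0, and Il33 and Klk6 are absent from most cells.

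Cells were then divided by Car2 and Trf together, at the library median of 7 UMIs, into 229 and 216 cells above it and 326 and 328 at or below it. The sums were tested as before, with Car2 and Trf taken out. Of 6140 genes, 22 (0.358%) were called, 13 higher (0.212%) and 9 lower (0.147%) in the cells rich in Car2 and Trf. Sepp1 was 985 and 1201 CPM in the high cells and 542 and 615 CPM in the low cells (log2 fold change 0.93 ± 0.07, adjusted p = 8.93e-05). Apod was 1206 and 1011 CPM against 753 and 600.3 CPM (0.72 ± 0.07, adjusted p = 0.00048), and Hapln2 506 and 497 CPM against 282 and 285 CPM (0.84 ± 0.10, adjusted p = 0.00249). Single cells of the 2 groups did overlap. A Hapln2 UMI was found in 51.5% and 55.6% of the high cells and in 32.8% and 33.8% of the low cells.
Hcn2 (0.74 ± 0.08), the actin-binding septin partner Anln (0.72 ± 0.13), the G protein subunit Gng11 (0.61 ± 0.07), the ETS factor Etv1 (0.56 ± 0.09), glutamine synthetase Glul (0.38 ± 0.05) and Fth1 (0.19 ± 0.02) were also higher. Ctps, a CTP synthase, was 18.2 and 24.1 CPM in the high and 84.8 and 65.3 CPM in the low cells (-1.81 ± 0.31, adjusted p = 0.0331). Plekha1, Ank3, Nfasc, Tspan2, Mal and Malat1 were lower by smaller amounts, with log2 fold changes from -0.64 for Plekha1 to -0.18 for Malat1. Other calls included S100a16, Rnf7, Gatm and Tmsb4x, higher, and Hbb-bs, lower, which rests on the hemoglobin-rich cell.

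Of the lists, 4 of 16 late mature genes were called higher (Sepp1, Apod, Hapln2 and Anln) and none lower, and 3 of 12 myelin-forming genes were called lower (Ctps, Mal and Tspan2) and none higher. With library totals 3 late mature genes (Sepp1, Apod and Hapln2) and no myelin-forming gene were called. The median log2 fold changes of the lists were 0.08 and -0.23, against 0.01 over all genes tested. Both lists were chosen with earlier results of these data known, so these counts are a description. High and low cells had a median of 3957 and 4191 UMIs in the male-labelled and 4525 and 4632 in the female-labelled library before thinning. Neuronal markers stood at 474 CPM in high and 623 CPM in low cells of the male-labelled library, and at 662 and 880 CPM in the female-labelled one. Their part in the calls was not tested. Levels in the divisions are on library totals as well, where the scaling moved fold changes by a median of at most 0.03 in size. The count of calls was 1 with DESeq2, 9 with library totals, 6 without the library block and 153 in another thinning draw, and all 22 genes were among the 153. Sepp1 was the gene called with DESeq2.

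Cells were also divided by Lpar1 and Mcam, into 369 and 364 cells with 1 or more UMIs of either and 186 and 180 with none. Of 6085 genes, 52 (0.855%) were called, 27 higher (0.444%) and 25 lower (0.411%) where these were detected. DESeq2, which also held the library as a block, called 0, and so did edgeR's fit without the block. They had 24 and 349 genes at an unadjusted p under 0.05. Each call below therefore rests on edgeR's fit with the block. In this division, as against newly formed cells, that fit replaced each gene's own spread by a value shared across genes. The fit of the Car2 and Trf division kept part of each gene's own spread. The adjusted p-values of the 2 divisions are therefore not on a par, and neither measures spread between animals. Plekha1, a phosphoinositide-binding adaptor, was 440 and 466 CPM with and 291 and 278 CPM without Lpar1 or Mcam (0.68 ± 0.11, adjusted p = 2.63e-06). Tmem141 was 226 and 161 CPM against 92.4 and 113 CPM (0.93 ± 0.18). Nfasc (0.53 ± 0.11), the transcription factor Klf13 (0.60 ± 0.12) and the cochaperone Dnajc7 (0.98 ± 0.19) were higher as well. Among smaller differences, Mal (0.21 ± 0.04), Tspan2 (0.23 ± 0.05) and Ptgds (0.21 ± 0.05) were higher.

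Glul was lower in the cells with Lpar1 or Mcam, at 1053 and 1108 CPM against 1535 and 1694 CPM (-0.57 ± 0.06, adjusted p = 1.86e-15). Hapln2 was lower, at 293 and 314 CPM against 538 and 481 CPM (-0.74 ± 0.11, adjusted p = 3.17e-09), and so were Sepp1 (-0.56 ± 0.08), Hcn2 (-0.48 ± 0.09), Anln (-0.57 ± 0.14) and Trf (-0.28 ± 0.06). Each was lower in both libraries. Hbb-bs, Hba-a1 and Hba-a2 were called lower as well, and 1 thinned cell of the female-labelled library held 209, 96 and 66 of their UMIs. Without that cell the variance over the mean was still 11.3 for Hba-a1 and 6.25 for Hba-a2, against 1.16 for Hbb-bs. Megf10, Slc1a3 and Pip4k2a were called under 1 of 11 alternative settings, that of library totals. By list, 6 of 19 late mature genes were lower and 1 higher, and 4 of 12 myelin-forming genes were higher (Mal, Tspan2, Cnp and Tmem141) and none lower. The medians were -0.10 and 0.25, against 0.00 over all genes. These are the same lists, chosen with earlier results of these data known. Astrocyte markers stood at 444 CPM with and 731 CPM without Lpar1 or Mcam in the male-labelled library, and at 668 and 642 CPM in the female-labelled one. Microglial markers stood at 157 and 48.4 CPM and at 46.7 and 52.8 CPM. Their part in the calls was not tested. After removal of cells with 3 or more UMIs of another class, 13 genes were called, 11 of them among the 52.

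The divisions use the same cells, so the values of a gene in the 2 are not independent and are given side by side only. Sepp1 had log2 fold changes of 0.93 by Car2 and Trf and of -0.56 by Lpar1 or Mcam, Hapln2 0.84 and -0.74, and Nfasc -0.55 and 0.53. Car2 itself was not separated by Lpar1 or Mcam (-0.04 ± 0.06, adjusted p = 0.925). A Lpar1 UMI was found in 53.7% (47.0 to 60.3%) of cells high and 61.3% (55.8 to 66.7%) of cells low in Car2 and Trf in the male-labelled library. The same shares were 55.6% (48.7 to 62.3%) and 58.5% (53.0 to 63.9%) in the female-labelled library, and the intervals overlapped in both. A Mcam UMI was found in 20.1% of high and 29.8% of low cells in the male-labelled library. In the female-labelled library it was found in 21.3% and 28.7%. Overlap of intervals does not show that shares are equal.

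**Figure D4:**
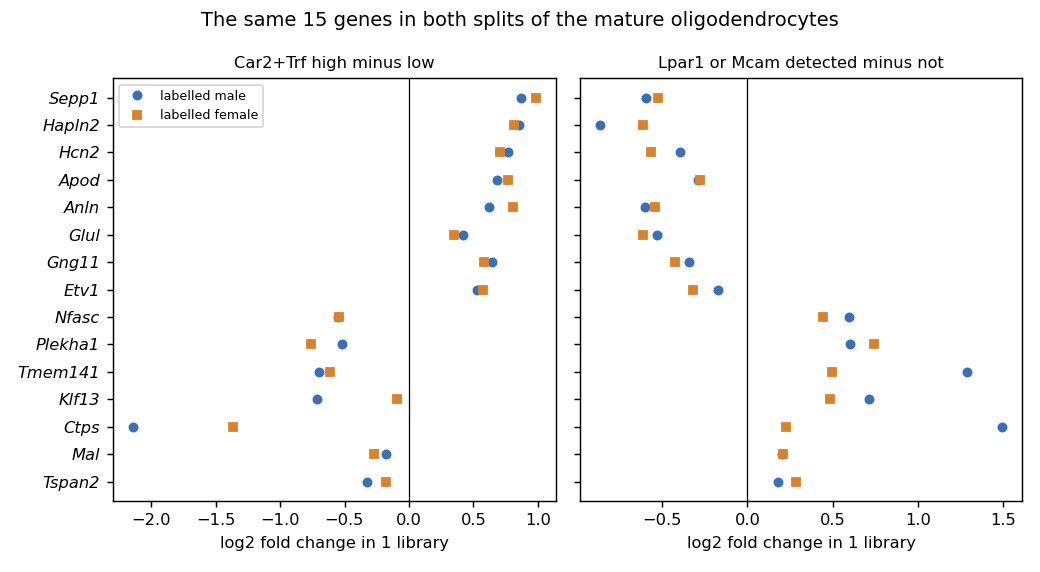
The x axes give the log2 fold change within 1 library, on the left for cells above against at or below the median of Car2 and Trf, on the right for cells with against without Lpar1 or Mcam. Points are libraries, and the 15 genes, each called in at least 1 of the divisions, were chosen after their values were seen from divisions that share the same cells: Sepp1, Hapln2 and Hcn2 lie right of 0 on the left and left of 0 on the right.

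Il33-positive cells were few, 46 and 43, against 509 and 501 without. Of 6144 genes 1 was called (0.0163%), Ptgds, at 5665 and 5579 CPM with and 3914 and 3435 CPM without Il33 (0.59 ± 0.07, adjusted p = 0.00334). DESeq2 and the fit without the library block called 0, with 24 and 260 genes at an unadjusted p under 0.05, against 278 in the fit with the block. Neuronal markers in Il33-positive cells were at 467 CPM in the male-labelled and 1756 CPM in the female-labelled library, against 570 and 711 CPM without Il33, and their part was not tested.

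Between the libraries the mature oligodendrocytes were close, and with 1 library per label there is no test and no replicate check. Of 1412 genes at 100 or more CPM in the higher library, 8 (0.567%) differed 2-fold or more, sex-linked genes apart, and 3 of these were the hemoglobin genes of the cell described above. Sgk1, a serum- and glucocorticoid-induced kinase, was the largest of the rest. It had 55 UMIs (23.1 CPM) in the male-labelled and 544 UMIs (209 CPM) in the female-labelled library, a ratio of 9.06 (exact 95% interval 6.86 to 12.2, counting error only). At 2000 UMIs per cell, 25 of 555 mature cells had a Sgk1 UMI in the former, or 4.5% (2.94 to 6.58%), and 163 of 544 in the latter, or 29.96% (26.1 to 34.0%), and before thinning 9.01% and 53.3%. No cell held more than 11 of these UMIs.

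The Sgk1 difference was not of that size in the newly formed cells, at 260 and 215 CPM, or in the other kept cells, at 27.6 and 31.7 CPM. Whether the ratio itself differs between cell groups was not tested, since each label has 1 library. In cells with 10 or more neuronal marker UMIs, 2.08% and 3.80% had a Sgk1 UMI at 2000 UMIs, so the 4.5% in the male-labelled mature cells lies near that level. Polr3e, a subunit of RNA polymerase III, had 118 and 284 CPM, a ratio of 2.40 toward the female-labelled library (2.09 to 2.77). It had 85.5 and 184.8 CPM in newly formed cells, the same direction, and 24.8 and 34.4 CPM in the other kept cells. Mat2a, which makes S-adenosylmethionine, had 199 and 418 CPM, and its other kept cells went the same way with 187 and 282 CPM. B2m, the light chain of class I antigen presentation, went the other way with 131 and 45.8 CPM, while microglial markers in the same cells were at 144 and 47.3 CPM. Their part in the B2m level was not tested. Gm10116, a predicted gene, had 113 and 55.0 CPM, with 44.9 and 24.8 CPM in the other kept cells.

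**Figure D5:**
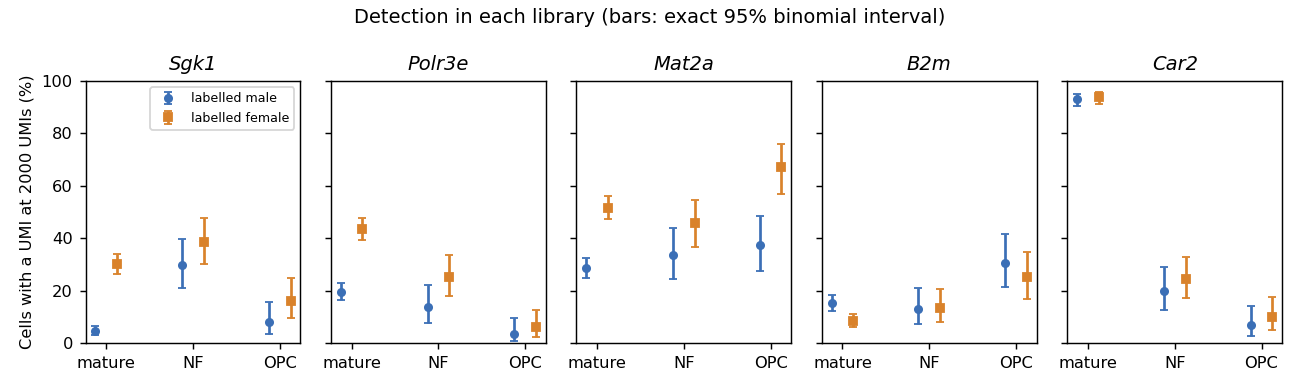
The y axis gives the percent of cells with a UMI of each gene after thinning to 2000 UMIs, with exact 95% binomial intervals as bars, in mature cells, newly formed cells (NF) and precursors (OPC) of each library. Sgk1 stood at 4.5% and 29.96% in the mature cells of the male- and female-labelled library, and Car2 at 93.0% and 93.8%.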

How the data were processed

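Single-cell mRNA was counted in 2 pooled libraries of lateral hypothalamic area. The authors deposited, per library, a matrix of raw UMI counts per gene and barcode, without normalization. Cell Ranger 2.2.0 and the build GRCm38 (mm10) are named in the submitters' processing notes. For annotation, cell calling and strand the entry is: not given in the sources used here. Cells with 500 or more genes and at most 20% mitochondrial UMIs were kept, which removed 163 barcodes from each library and left 3276 of 3439 and 3630 of 3793. The fewest UMIs of a kept cell were 1987 and 2155. No doublet caller was run, and no correction for ambient RNA was made.

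UMIs of the cells were summed per library and group. Tests used edgeR 4.0.16 (filterByExpr, TMM scaling, quasi-likelihood fit with the library as a block, 4 sums and 1 residual degree of freedom, Benjamini-Hochberg adjustment over all genes tested, adjusted p under 0.05). DESeq2 1.42.0 and a fit on library totals without TMM were alternatives. Printed CPM levels are on library totals. The library serves as the block because both groups of cells come from the same pool of animals. Genes that sorted the cells were removed before adjustment. For divisions within the mature cells, each cell was thinned at random to 2000 UMIs. The fit was tested on simulated data. Shares carry exact Clopper-Pearson 95% intervals.

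Named genes were, against other cells, the 25 with the largest ratio at 50 or more CPM. In each test they were up to 12 called genes with the largest change in each direction at 50 or more CPM and with the same direction in both libraries. Between libraries they were genes at 2-fold or more and 100 or more CPM. Members of the gene lists, genes of the stage series and of the spread, and genes below 50 CPM were named to describe their list or group, some after their values were seen. Some genes that meet these rules are not reported here. The members and lists were chosen with earlier results of these data known. Promoter windows come from RefSeq (GRCm38.p6). Of 28692 gene identifiers 28339 (98.8%) are in GENCODE M21.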

Additional observations from a re-analysis of the deposited data

How the results depend on the processing

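Alternatives changed the counts within the mature cells far more than the comparison of stages, and the cause was not tested. Mature against newly formed cells gave 3007 genes, 1046 with DESeq2, 1996 with cells thinned to 2000 UMIs and 2490 without the library block, the pairing of the sums. The division by Car2 and Trf gave 22 genes. It gave 1 with DESeq2, 6 without the replicate block, 12 by Car2 alone, 59 in cells with no Snap25 or Syt1 UMI, 70 with no filter, 98 at 10 or more mature marker UMIs and 200 at 3000 UMIs. It gave 88 without cells with UMIs of another class, 153 in another draw, 257 without thinning and 9 with library totals in place of TMM scaling, 4 settings chosen after seeing the data. The division by Lpar1 and Mcam gave 52 genes. It gave 0 with DESeq2 and 0 without the block, 24 at 10 or more mature marker UMIs, 11 with no Snap25 or Syt1 UMI, 13 without cells of another class, 30 in another draw and 87 without thinning. Il33 gave 1 gene. It gave 0 with DESeq2 and 0 without the block, 12 with no filter, 5 at 10 or more mature marker UMIs, 2 with no Snap25 or Syt1 UMI, 12 at 3000 UMIs, 4 without cells of another class, 3 in another draw and 11 without thinning.

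With either library left out there is no test. Genes at 2-fold or more and 50 or more CPM then numbered 746 to 772 for mature against newly formed cells, 27 to 52 for Car2 and Trf, 32 to 44 for Lpar1 and Mcam and 299 to 317 for Il33. In both libraries together they numbered 728, 11, 6 and 157. Malat1 turned to 0.11 with Car2 alone, Hbb-bs to 2.62 at 3000 UMIs, and Tnni1 to -0.021 in another draw. Of the other values of single genes, 658 kept their direction without losing a call, and 194 kept their direction and lost the call. The 658 include the values with either library left out, which had no test and so no side of the threshold. Those values could not turn, because genes were named only with the same direction in both libraries. The rest of the 658 also kept their side of the threshold.

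The share of mature cells was 11.4% and 7.70% at no more than 10% mitochondrial UMIs and 10.7% and 8.57% with no Snap25 or Syt1 UMI. With all cells thinned it was 18.8% and 16.2%. Depth limits genes near 1 UMI per cell, such as Il33 and Klk6.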

Other observations

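Of 22 early response genes, 2 stood at 50 or more CPM in the mature oligodendrocytes of both libraries. Of all 28625 gene symbols 2571 did, the sorting genes apart, which is a similar share. Genes of heat shock or cell stress went both ways against newly formed cells. Fos had 34 and 24 UMIs in the mature cells, against 165 and 61 UMIs in the fewer and shallower precursors. Of 13 early response genes tested against newly formed cells, 4 were lower and 1 higher in the mature cells (edgeR's quasi-likelihood test), where 15.4% of all genes were called lower and 15.6% higher. With library totals in place of TMM scaling 6 were lower and 1 higher, where 2829 of all 9685 genes were lower and 752 higher. The higher one was Jund, at 1010 and 798 CPM in mature and 545 and 352 CPM in newly formed cells. Of 11 genes of heat shock or cell stress, Hspa8, Hsp90aa1, Hsp90ab1 and Ddit3 passed the test upward and Sgk1 downward. With library totals 4 passed upward and 3 downward. The numbers over all genes just given for each scaling apply to this list and the next. The Sgk1 call came from the male-labelled library, with log2 fold changes of -3.13 there and 0.27 in the female-labelled one. Of 5 genes of the interferon, antigen and injury list, B2m was called higher, with log2 fold changes of 0.80 in the male-labelled and -0.02 in the female-labelled library, and H2-K1 and the tetraspanin gene Cd9 were lower. With library totals B2m was not called (0.13 ± 0.18) and 3 genes were lower.

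Other genes known to respond to glucocorticoids, as far as listed here, also had higher summed levels in the female-labelled library, with smaller ratios than Sgk1. Tsc22d3 had 183 and 222 CPM in the mature cells, and Fkbp5 had 8 and 14 UMIs (3.36 and 5.39 CPM). Ddit4 had 137 and 202 CPM, and Arrdc2 had 23.1 and 39.2 CPM. These genes were chosen after the Sgk1 values were seen.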
